A study of Mus musculus with 2 samples.

Results

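The expression of 9 genes of the neurexin adhesion system was followed through the cell classes of the embryonic mouse cortex. They were the neurexophilins *Nxph1*, *Nxph2*, *Nxph3* and *Nxph4*, the neurexin *Nrxn2*, and the leucine-rich repeat genes *Lrrtm1*, *Lrrtm2*, *Lrrtm3* and *Lrrtm4*. The members were taken by name, and all 9 were found among the 32285 genes of the count matrices, each as a single entry. Transcripts were counted by droplet-based 3′ single-cell sequencing (10x Genomics) in 2 wild-type mice at embryonic day (E) 16.5, which carry the numbers 4 and 5. Both are control animals of an *Eomes*-Cre line, written EoMltt3 in the sample titles and EomesMllt3 in the design, and only wild-type samples were analysed. The tissue label reads brain hemispheres and the protocol names the cortex, and the supplement of the study gives the strain of E16.5 cortices as C57BL/6J. The numbers were taken to mark separate embryos, so p-values measure the spread between these 2 libraries.

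Neurexins are presynaptic membrane proteins that hold a synapse together by binding partners across the cleft. Neurexophilins are small secreted glycoproteins that bind the extracellular part of the long α-neurexins. The Lrrtm proteins are postsynaptic partners of neurexins, of which Lrrtm1 and Lrrtm2 bind the neurexin protein itself, while Lrrtm4 is known to act through heparan sulfate chains on neurexins and glypicans. At E16.5 most of these cells are still migrating or growing axons, so the transcripts were measured before most cortical synapses form.

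On the assembly GRCm38.p6 the neurexophilin genes lie at chr6:8948614-9249619 (*Nxph1*, ENSMUSG00000046178), chr2:23321246-23401986 (*Nxph2*, ENSMUSG00000069132), chr11:95509845-95514565 (*Nxph3*, ENSMUSG00000046719) and chr10:127525473-127534559 (*Nxph4*, ENSMUSG00000040258). *Nrxn2* (ENSMUSG00000033768) lies at chr19:6418756-6533217 and *Lrrtm4* (ENSMUSG00000052581) at chr6:80018858-80810162. The other Lrrtm genes each lie inside an α-catenin gene and on the opposite strand to it. *Lrrtm1* (ENSMUSG00000060780, chr6:77229210-77259915) lies within *Ctnna2*, *Lrrtm2* (ENSMUSG00000071862) within *Ctnna1*, and *Lrrtm3* (ENSMUSG00000042846, chr10:63928497-64090255) within *Ctnna3*. In the GENCODE annotation of the later assembly the exons of *Lrrtm1* and *Lrrtm3* overlapped 0 exons of the host, whereas 3 listed exons of *Lrrtm2* did. The 10x 3′ chemistry keeps the strand of a transcript.

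*Lrrtm3* and *Lrrtm4* were both highest in layer 6 neuron-like cells, so the sequence before their starts is shown, as RefSeq lists it on GRCm38.p6. Each run holds 200 bases, from 250 to 51 bases before the start. The *Lrrtm3* stretch is chr10:64090306-64090505 on the minus strand. The *Lrrtm4* stretch is chr6:80018627-80018826 on the plus strand, before the first of 2 starts listed for the promoters, which lies just inside the outer end of the gene given above. Capitals mark the E-box CAGCTG, a palindrome bound by basic helix-loop-helix factors.
*Lrrtm3*: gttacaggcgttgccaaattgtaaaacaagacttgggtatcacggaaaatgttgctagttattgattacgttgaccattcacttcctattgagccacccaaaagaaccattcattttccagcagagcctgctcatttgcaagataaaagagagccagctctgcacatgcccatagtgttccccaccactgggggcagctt
*Lrrtm4*: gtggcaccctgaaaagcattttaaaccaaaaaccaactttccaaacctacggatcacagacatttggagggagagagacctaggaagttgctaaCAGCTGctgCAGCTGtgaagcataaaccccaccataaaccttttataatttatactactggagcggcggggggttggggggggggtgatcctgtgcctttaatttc
The E-box was found at 2 places in the *Lrrtm4* stretch, starting 156 and 147 bases before that listed start, and was not found in that of *Lrrtm3*. It was present in 10.3% of the 32851 promoters when the same 200 bases were searched on both strands. The T-box motif TCACACC (2.71% of promoters) and the homeodomain motif TAATTA (4.19%) were in neither stretch. The GC content was 45.5% for *Lrrtm3* and 47.5% for *Lrrtm4*, with 3 CpG in each. Of the 9 genes, 5 had an entry among the promoter sequences.

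Embryo 4 gave 12825 barcodes with 124318613 unique molecular identifiers (UMIs, tags that count single transcript molecules), and embryo 5 gave 12289 barcodes with 117679925 UMIs. After filtering, 9932 and 10416 cells remained, with medians of 10035.5 and 8836.5 UMIs. The libraries shared 46 barcodes, of which 26 were in kept cells of both. Clustering without the 9 genes and their partners gave 23 clusters, of which 16 were named from marker genes and 7, with 23.0% of the cells, were not. Classes are called "-like" because their names rest on markers alone. The 11 classes used were radial glial cell (RGC)-like, intermediate progenitor (IPC)-like, migrating excitatory neuron-like, upper-layer, layer 5 and layer 6 neuron-like, Cajal-Retzius cell-like, mural cell-like, and the interneurons or GABAergic neurons named for the medial, caudal and lateral ganglionic eminence (MGE-, CGE- and LGE-like). In 9 of them every marker was higher than in the other named cells in both embryos. The exceptions were layer 5 neuron-like cells, with 3 of 5 markers, and upper-layer neuron-like cells, with 5 of 6. The same markers had named the clusters, so these counts were largely set in advance. Levels are given as CPM, UMIs of a gene scaled to 1000000 UMIs of the class in that embryo. CPM are compared between classes and never between genes, since transcripts differ in length and capture.

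Each gene had a distinct distribution. *Nxph1* and *Nxph2* were concentrated in MGE interneuron-like cells, *Nxph3* in Cajal-Retzius cell-like and layer 6 neuron-like cells, and *Nxph4* was spread over migrating neuron-like, IPC-like, layer 6 neuron-like and Cajal-Retzius cell-like cells. *Nrxn2* was present in every class and higher in neurons than in progenitors. *Lrrtm3* marked both deep layers and *Lrrtm4* layer 6 above all. In 1 edgeR fit each class was compared with the average of the remaining 10, with adjustment over 15596 genes per class, which gave 99 pairs of a member and a class. At an edgeR adjusted p under 0.05, 40 pairs (40.4%) were higher and 30 (30.3%) lower. Over all genes and classes the shares were 25.4% higher and 16.7% lower. Where the reference was instead the pooled UMIs of every other kept cell, the count turned to 24 higher and 60 lower. The shares of all genes were then 17.8% and 22.5%. That reference also holds the cells of the unnamed clusters, and large classes weigh most in it.

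**Figure D1:**
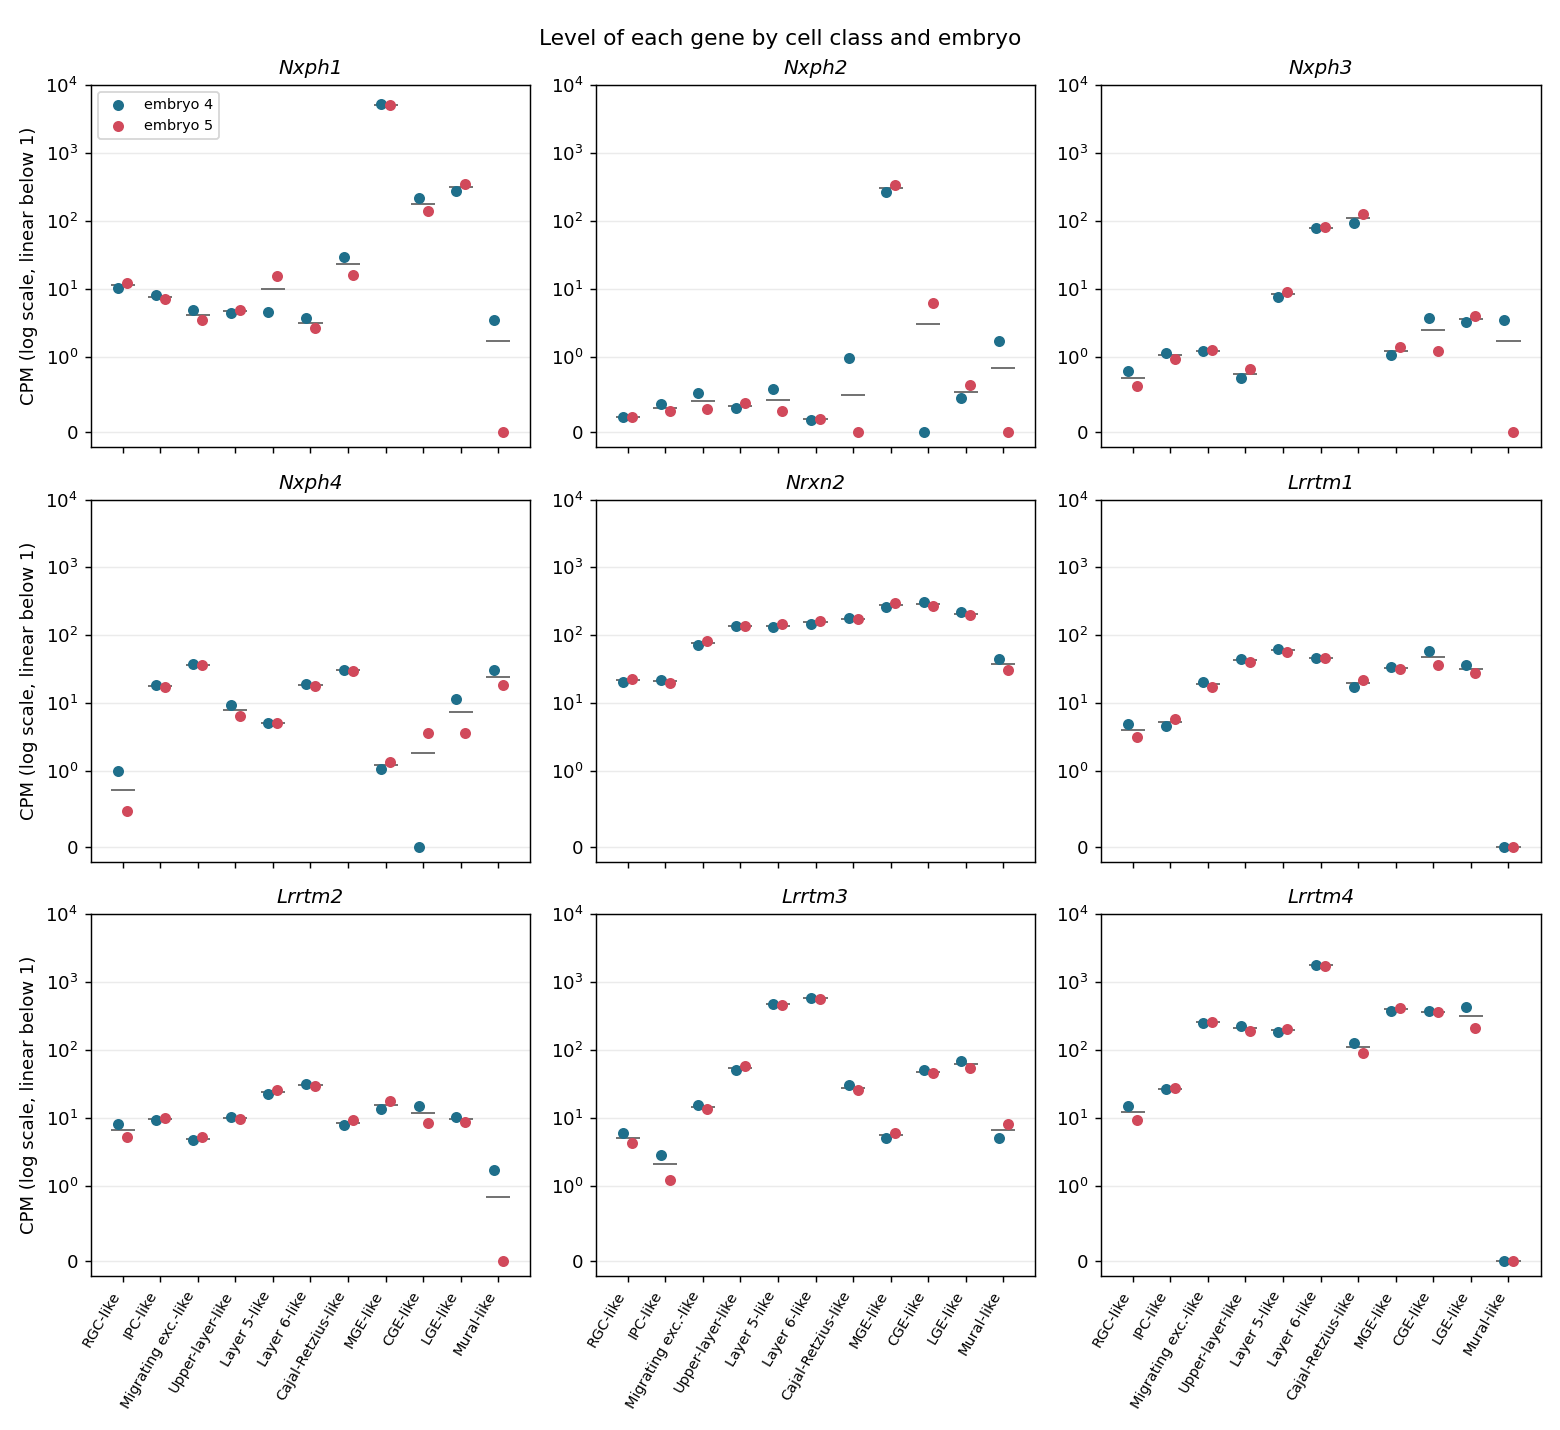
CPM of each gene (log scale, linear below 1) in the 11 classes, with 1 point per embryo and a line at their mean. *Nxph1* and *Nxph2* stand out in MGE interneuron-like cells, *Nxph3* in Cajal-Retzius cell-like and layer 6 neuron-like cells, and *Lrrtm4* in layer 6 neuron-like cells, whereas *Nrxn2* was at 19.9 CPM or more in every class.

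*Nxph1* had 24293 UMIs in the 689 MGE interneuron-like cells of embryo 4 and 22493 in the 657 of embryo 5, which is 5167 and 5135 CPM (mean 5151 ± 22.5, SD, n = 2). These cells held 91.8% of all its UMIs in kept cells. It was next highest in LGE GABAergic neuron-like cells, at 274 and 349.8 CPM, and in CGE interneuron-like cells, at 214 and 139 CPM. The 3 GABAergic classes thus stood above all others in both embryos, with MGE-like cells 14.7 to 18.8 times above LGE-like and 24.1 to 36.9 times above CGE-like cells. In Cajal-Retzius cell-like cells *Nxph1* was at 29.4 and 16.1 CPM. In RGC-like cells it was at 10.3 and 12.1 CPM, and in IPC-like cells at 8.02 and 7.01 CPM. Excitatory neurons ranged from 2.62 CPM in layer 6 neuron-like cells of embryo 5 to 15.6 CPM in layer 5 neuron-like cells of the same embryo, where 1 cell held 24 of the 55 UMIs. MGE-like cells were higher than LGE-like cells by a log2 difference of 4.16 (standard error (SE) 0.204, edgeR adjusted p = 1.93e-12), and LGE-like than CGE-like cells by 0.75 (SE 0.223, adjusted p = 0.0312). MGE-like cells differed from each of the 10 other classes in a pairwise contrast, where 41.6% of all gene and pair contrasts were called, from 6.16% between CGE- and MGE-like cells to 69.6% between layer 6 neuron-like and RGC-like cells. From Cajal-Retzius cell-like cells downward, no neighbours in the order of levels differed by the edgeR test.

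A UMI of *Nxph1* was seen in 99.0% of MGE interneuron-like cells of embryo 4 (exact binomial 95% interval 97.9 to 99.6%) and in 98.6% of embryo 5 (97.4 to 99.4%). These intervals cover counting error only. The same share was 4.34% and 2.14% in layer 6 neuron-like cells, which were deeper, with medians of 12770 and 11039.5 UMIs against 6368 and 6387 in MGE-like cells. With every cell thinned to 2000 UMIs and shallower cells left out (11 and 8 of the MGE-like cells), the shares were 98.5% and 97.8% in MGE-like cells and 0.727% and 0.196% in layer 6 neuron-like cells. The median MGE-like cell held 28 UMIs of *Nxph1* in each embryo, with quartiles of 15 and 48 in embryo 4 and 13 and 48 in embryo 5. The gene was therefore present in nearly the whole class, and 7 and 9 cells had none.

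In LGE- and CGE-like cells the UMIs of *Nxph1* came from few cells. In LGE-like cells, 36 of 575 cells in embryo 4 and 29 of 505 in embryo 5 had at least 10 UMIs and held 73.9% and 86.8% of the class's *Nxph1* UMIs. In CGE-like cells 5 of 146 and 3 of 136 cells held 68.6% and 72.8%. The 6 MGE interneuron markers summed to 615 and 328 CPM in LGE-like, 775 and 871 CPM in CGE-like, and 3792 and 4091 CPM in MGE-like cells. *Sox6* was the most abundant of them in each class. In CGE-like cells of embryo 5 *Lhx6*, a transcription factor expressed in MGE-derived interneurons, was at 0. Cells with a UMI of *Lhx6* held 19.3% and 4.16% of the *Nxph1* UMIs in LGE-like cells and 77.9% and 78.0% in MGE-like cells. With those cells left out, LGE-like cells stood at 267 and 351 CPM and MGE-like cells at 5104 and 5438 CPM. A UMI of *Lhx6* was seen in only 498 of 689 and 491 of 657 MGE-like cells. Leaving out such cells therefore cannot remove all MGE-type cells from a class, and no conclusion was drawn from it.

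*Nxph2*, a close relative of *Nxph1*, was found almost only in MGE interneuron-like cells. It had 1247 and 1481 UMIs there, or 265 and 338 CPM (302 ± 51.5, SD, n = 2), and this class held 97.3% of its UMIs. In each other class it had between 0 and 8 UMIs per embryo. The highest of these was 6.10 CPM in CGE-like cells of embryo 5, where 1 cell gave all 5 UMIs, while embryo 4 had 0 UMIs there, under a limit of 3.73 CPM that a count of 0 allows (3 UMIs). MGE-like cells were higher than each of the 10 other classes in a pairwise edgeR contrast, the smallest being a log2 difference of 6.64 from CGE-like cells (SE 0.327), and no neighbours among the other 10 classes differed. A UMI of *Nxph2* was seen in 52.1% (48.3 to 55.9%) and 59.5% (55.6 to 63.3%) of MGE-like cells, and in 32.0% and 37.0% after thinning. In RGC-like cells, at medians of 11096 and 9805.5 UMIs, the share was 0.232% and 0.0700%.

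Within MGE interneuron-like cells both neurexophilins were seen in 358 cells of embryo 4 and 389 of embryo 5. *Nxph1* alone was seen in 324 and 259 cells, and *Nxph2* alone in 1 and 2. Nearly every cell with *Nxph2* thus also held *Nxph1*, a gene that most cells of the class held in any case. Cells with a UMI of *Sst*, the somatostatin gene, had 5037 and 5354 CPM of *Nxph1*, and those without had 5292 and 4933 CPM. The corresponding values of *Nxph2* were 248 and 342 CPM with and 282 and 334 CPM without *Sst*. For both genes the direction of this difference was opposite in the 2 embryos. For *Lrrtm4* it was alike, with 499.97 and 610.3 CPM in cells with *Sst* and 246 and 243 CPM in cells without. The cells with *Sst* were deeper (medians 7950 and 7094.5 UMIs, against 5372.5 and 5915), and the part of depth in this difference was not tested.

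**Figure D2:**
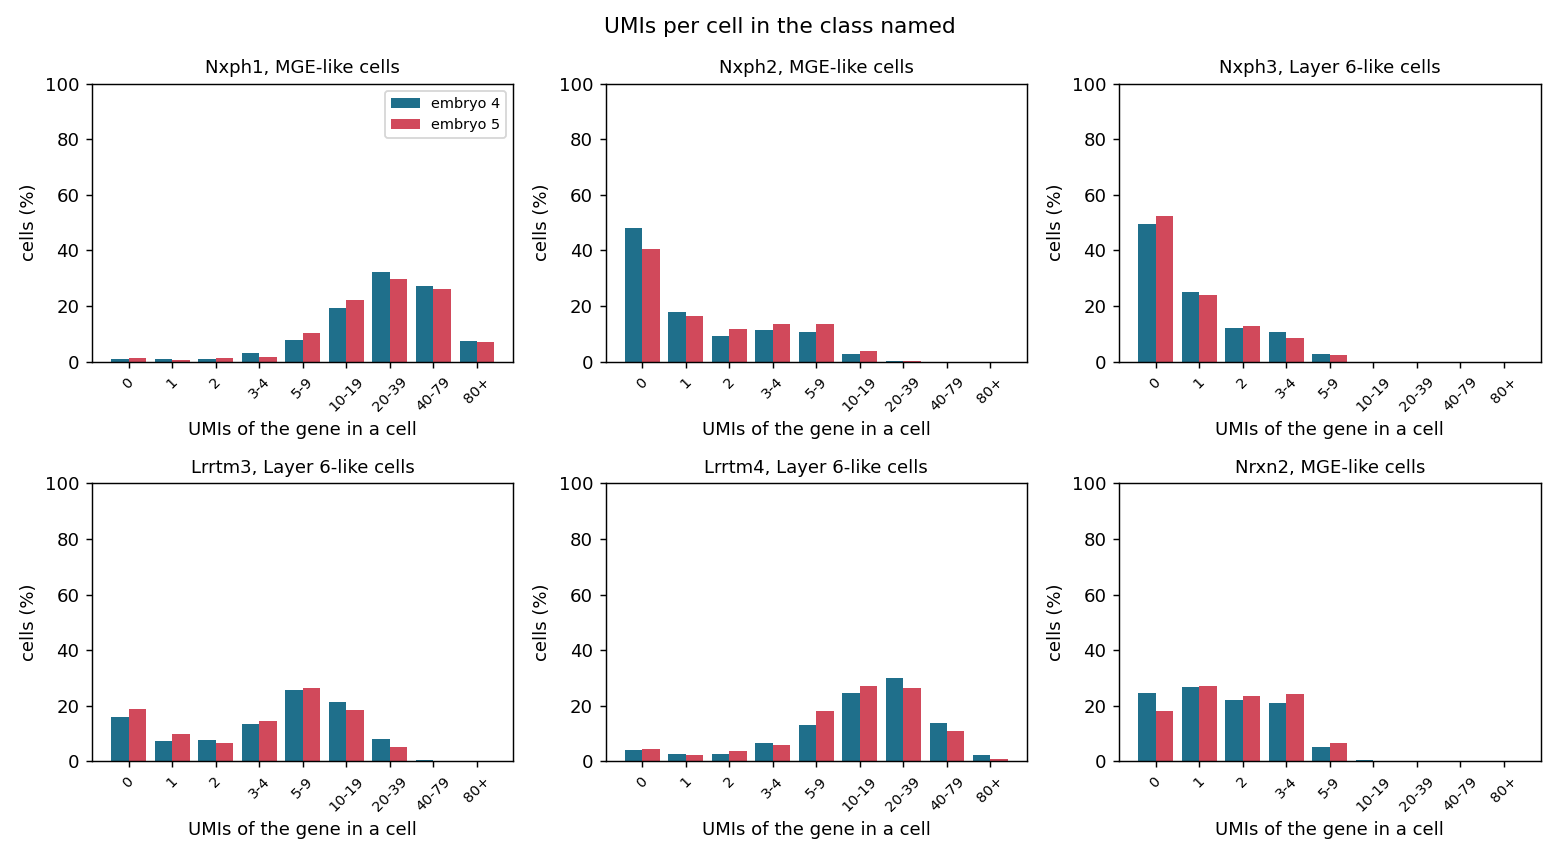
Share of cells (%) by the number of UMIs of a gene in the cell, for 6 pairs of a gene and a class, with 1 bar per embryo. *Nxph1* peaks at 20 to 39 UMIs in MGE-like cells and *Lrrtm4* at 10 to 39 in layer 6-like cells, whereas *Nxph2*, *Nxph3* and *Nrxn2* are mostly at 0 to 4.

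*Nxph3* was highest in a pair of neuron classes. In Cajal-Retzius cell-like cells, the reelin-secreting neurons of the marginal zone, it stood at 91.3 and 128 CPM (110 ± 25.8, SD, n = 2), from 93 and 111 UMIs. In layer 6 neuron-like cells it stood at 78.0 and 81.2 CPM (79.6 ± 2.28, SD, n = 2), from 968 and 930 UMIs. Both embryos were higher in the first class, but the contrast did not pass the test (log2 difference 0.12, SE 0.147, edgeR adjusted p = 0.578). Layer 5 neuron-like cells came next at 7.68 and 9.08 CPM, lower than layer 6 by a log2 difference of 3.25 (SE 0.179, adjusted p = 3.87e-11). The upper-layer, migrating, progenitor and MGE-like classes were each between 0.610 and 1.37 CPM. Upper-layer neuron-like cells had 0.715 and 0.835 CPM, so that layer 6 stood far above the other cortical layers.

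A UMI of *Nxph3* was seen in 55.9% (43.3 to 67.9%) and 70.1% (57.7 to 80.7%) of Cajal-Retzius cell-like cells. In layer 6 neuron-like cells it was seen in 50.4% (47.2 to 53.6%) and 47.5% (44.4 to 50.6%). Upper-layer neuron-like cells, at medians of 10526 and 9298 UMIs, had 0.775% and 0.817%. After thinning the shares were 14.7% and 26.9% in Cajal-Retzius cell-like cells and 15.2% and 14.0% in layer 6 neuron-like cells, so the first class was no longer the higher one in embryo 4.

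*Nxph4* was spread over several classes. It was highest in migrating excitatory neuron-like cells, at 37.8 and 36.5 CPM (37.2 ± 0.938, SD, n = 2), followed by Cajal-Retzius cell-like cells at 31.4 and 29.9 CPM and mural cell-like cells, the pericyte and smooth muscle lineage, at 30.7 and 18.4 CPM. The last value rests on 18 and 9 UMIs. Layer 6 neuron-like cells had 19.0 and 17.8 CPM and IPC-like cells 18.7 and 17.2 CPM. Migrating neuron-like cells were higher than IPC-like cells by a log2 difference of 1.17 (SE 0.199, edgeR adjusted p = 6.16e-05), whereas no neighbours among the first 5 classes differed. RGC-like cells, which precede IPCs in the lineage, had only 1.02 and 0.475 CPM. IPC-like cells were higher than RGC-like cells by 4.57 (SE 0.329, adjusted p = 2.67e-10). MGE interneuron-like cells were also low, at 1.06 and 1.37 CPM. A UMI was seen in 26.3% and 22.5% of migrating neuron-like cells and 1.16% and 0.490% of RGC-like cells. The thinned share was higher in Cajal-Retzius cell-like (8.82% and 10.4%) than in migrating neuron-like cells (6.78% and 6.75%), which goes against the order of the CPM, so no order was read from it.

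The 4 neurexophilins thus covered different classes. Any of them was seen in 99.1% of MGE interneuron-like cells of embryo 4, in 76.5% and 77.6% of Cajal-Retzius cell-like cells and in 58.9% and 54.9% of layer 6 neuron-like cells, but in 18.7% and 17.3% of layer 5 neuron-like cells. At least 2 were seen in 27.9% and 26.9% of Cajal-Retzius cell-like cells, where *Nxph3* and *Nxph4* occurred in the same cell in 12 and 14 cells.

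*Nrxn2*, which encodes the receptor side of this system, had UMIs in every class and embryo. It was highest in CGE interneuron-like cells, at 307 and 268 CPM (288 ± 27.5, SD, n = 2), and in MGE interneuron-like cells, at 262 and 296 CPM (279 ± 24.1, SD, n = 2). These classes overlapped and did not differ by the edgeR test (log2 difference 0.01, SE 0.113, adjusted p = 0.992). LGE-like cells followed at 222 and 197 CPM, lower than MGE-like cells by 0.52 (SE 0.101, adjusted p = 0.000617). Cajal-Retzius cell-like, layer 6, layer 5 and upper-layer neuron-like cells lay between 133 and 182 CPM, and no neighbours among them differed. Their order by CPM also depends on scaling, since the edgeR difference of Cajal-Retzius cell-like from layer 6 neuron-like cells was -0.14 (adjusted p = 0.395) where the CPM were higher. Migrating neuron-like cells had 72.6 and 82.3 CPM, lower than upper-layer neuron-like cells by 0.86 (SE 0.0995, adjusted p = 4.67e-07). RGC-like cells had 20.5 and 23.0 CPM and IPC-like cells 22.0 and 19.9 CPM, the lowest of the 11 classes.

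Against the mean of the other classes *Nrxn2* was higher in 7 classes, each of them neuronal, and lower in 4, namely RGC-like, IPC-like, migrating neuron-like and mural cell-like cells. Its share of cells was 73.3% (65.3 to 80.3%) and 75.7% (67.6 to 82.7%) in CGE-like and 75.5% (72.1 to 78.6%) and 82.0% (78.9 to 84.9%) in MGE-like cells. In mural cell-like cells, which are not neurons, it was 31.4% and 21.3%, at medians of 10549 and 10156 UMIs. Cajal-Retzius cell-like cells had the highest share without thinning, 82.4% and 80.6%, at medians of 14595 and 13072 UMIs. After thinning their share was 27.9% and 26.9%, below the 39.7% and 43.5% of MGE-like cells. The order of the shares was thus not the same with and without thinning.

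*Lrrtm1* and *Lrrtm2*, whose proteins bind neurexins directly, were each highest in a deep layer. *Lrrtm1* was highest in layer 5 neuron-like cells, at 62.6 and 57.9 CPM (60.2 ± 3.34, SD, n = 2). CGE-like cells had 58.5 and 36.6 CPM, layer 6 neuron-like cells 45.8 and 46.2 CPM and upper-layer neuron-like cells 45.6 and 40.8 CPM. None of these 4 classes differed from its neighbour by the edgeR test. Layer 5 was, however, higher than upper-layer neuron-like cells by a log2 difference of 0.55 (SE 0.14, edgeR adjusted p = 0.00893). MGE-like cells had 33.8 and 31.7 CPM, lower than upper-layer neuron-like cells by a log2 difference of 0.48 (SE 0.146, adjusted p = 0.013). IPC-like cells, at 4.63 and 5.91 CPM, and RGC-like cells, at 4.95 and 3.19 CPM, were lowest among the classes with a count. Mural cell-like cells had 0 UMIs in both embryos, which allows up to 5.12 and 6.14 CPM. A UMI was seen in 49.1% (42.9 to 55.2%) and 47.0% (41.3 to 52.7%) of layer 5 neuron-like cells, and in 10.9% of each embryo after thinning, against 1.02% and 0.568% of thinned RGC-like cells.

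*Lrrtm2*, at chr18:35209003-35215024, was highest in layer 6 neuron-like cells, at 31.2 and 29.6 CPM (30.4 ± 1.11, SD, n = 2), and next in layer 5 neuron-like cells, at 22.5 and 25.8 CPM. Both deep layers stood above all other classes in both embryos. They did not differ from each other by the edgeR test (log2 difference 0.34, SE 0.171, adjusted p = 0.26), but layer 5 was higher than MGE-like cells, at 13.6 and 17.6 CPM, by 0.79 (SE 0.201, adjusted p = 0.00379). RGC-like cells had 8.13 and 5.22 CPM. IPC-like cells had 9.39 and 10.0 CPM, about as much as upper-layer neuron-like cells at 10.2 and 9.72 CPM, and migrating neuron-like cells had less, at 4.68 and 5.21 CPM. A UMI was seen in 29.99% (27.1 to 33.0%) and 26.8% (24.1 to 29.6%) of layer 6 neuron-like cells and in 3.91% and 4.08% of migrating neuron-like cells.

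*Lrrtm3* was high in both deep-layer classes as named. Layer 6 neuron-like cells had 7334 and 6483 UMIs, or 591 and 566 CPM (578 ± 17.5, SD, n = 2), and layer 5 neuron-like cells had 477 and 458 CPM (467 ± 13.0, SD, n = 2). Layer 6 was higher in both embryos, and the contrast did not pass the test (log2 difference 0.32, SE 0.111, edgeR adjusted p = 0.0783). Unnamed cluster 4, whose best class by markers was layer 5, had 38.1 and 23.7 CPM, so the layer 5 value holds for the class as named. All other named classes were under 70 CPM. LGE-like cells had 68.7 and 54.8 CPM, upper-layer neuron-like cells 50.4 and 58.7 CPM and CGE-like cells 51.0 and 45.1 CPM. MGE interneuron-like cells had only 5.10 and 5.94 CPM, so that the CGE- and MGE-like classes differed by a log2 difference of 3.09 (SE 0.288, adjusted p = 1.22e-07). IPC-like cells were lowest at 2.88 and 1.24 CPM. A UMI was seen in 84.2% (81.7 to 86.4%) and 81.1% (78.6 to 83.4%) of layer 6 and in 75.3% (69.7 to 80.3%) and 72.8% (67.6 to 77.7%) of layer 5 neuron-like cells. In MGE-like cells the share was 1.89% and 2.28%. After thinning the shares were 57.6% and 55.2% in layer 6, 50% and 44.1% in layer 5 and 0.590% and 1.39% in MGE-like cells, the same order.

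Of the named classes, layer 6 neuron-like cells had the highest level of *Lrrtm4* by a wide margin. The gene had 22127 and 19695 UMIs there, or 1782 and 1719 CPM (1751 ± 44.4, SD, n = 2). This class held 48.7% of its UMIs in kept cells. The unnamed clusters stood outside this order, and cluster 15 among them had 1032 and 888 CPM. MGE-like cells, the next named class, had 371 and 419 CPM, lower than layer 6 by a log2 difference of 2.31 (SE 0.209, edgeR adjusted p = 1.49e-08). Layer 6 differed from each of the 10 other classes. CGE-like cells had 371 and 356 CPM, LGE-like cells 429 and 208 CPM, migrating neuron-like cells 251 and 262 CPM, upper-layer neuron-like cells 228 and 189 CPM and layer 5 neuron-like cells 186 and 204 CPM. The embryos were far apart in LGE-like cells, and no neighbours among these 6 classes differed. Among the named classes *Lrrtm3* was high in layers 5 and 6, whereas *Lrrtm4* in layer 5 was at the level of upper-layer neuron-like cells. The layer 5 neuron-like cluster had a mean log2 ratio of its markers of 0.548, over the naming limit of 0.5. Unnamed cluster 4 was nearest to layer 5 by its markers, with a ratio of 0.488, under that limit. That cluster had 486 and 455 CPM of *Lrrtm4* and 38.1 and 23.7 CPM of *Lrrtm3*. The layer 5 pattern thus holds for the class as named, and its dependence on the naming limit was not tested. Cajal-Retzius cell-like cells had 127 and 90.9 CPM, IPC-like cells 26.7 and 27.2 CPM and RGC-like cells 15.1 and 9.22 CPM, each lower than the class before it. Mural cell-like cells had 0 UMIs in both embryos, under the same limits as for *Lrrtm1*.

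A UMI of *Lrrtm4* was seen in 95.9% (94.4 to 97.0%) and 95.6% (94.2 to 96.8%) of layer 6 neuron-like cells, and in 8.26% and 5.32% of RGC-like cells at medians of 11096 and 9805.5 UMIs. After thinning it was seen in 84.5% and 83.6% of the first and 2.67% and 1.70% of the second. The median layer 6 neuron-like cell held 18 UMIs in embryo 4 and 14.5 in embryo 5. Both *Lrrtm3* and *Lrrtm4* were seen in 81.3% and 78.7% of layer 6 neuron-like cells and in 28.5% and 28.1% of layer 5 neuron-like cells. *Nxph3* and *Lrrtm4* were seen together in 49.2% and 46.1% of layer 6 neuron-like cells. At least 2 of the 4 Lrrtm genes were seen in 90.3% and 89.3% of layer 6 and in 62.9% and 55.3% of layer 5 neuron-like cells.

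**Figure D3:**
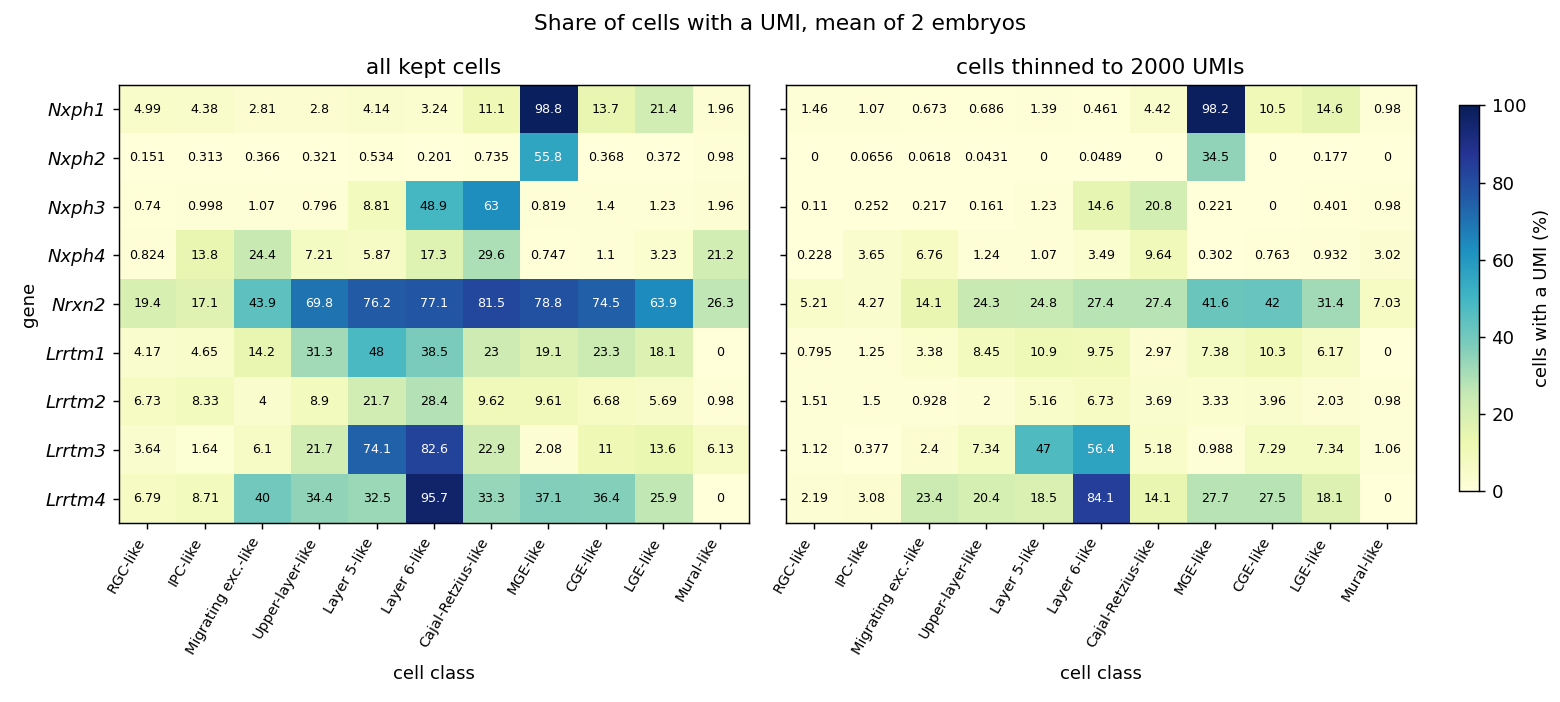
Share of cells (%) with a UMI of each gene by class, as the mean of 2 embryos, for all kept cells and for cells thinned to 2000 UMIs. *Nxph1* stays at 98.2% in MGE-like cells after thinning and *Lrrtm4* at 84.1% in layer 6-like cells, while *Nxph3* in Cajal-Retzius-like cells goes from 63.0% to 20.8%.

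The contrasts of *Lrrtm1* and *Lrrtm4* with the mean of the other classes moved with the mural cell-like class, where both were at 0. In the fit of all 11 classes their contrasts in RGC-like and IPC-like cells could not be fitted, with no standard error of 100 or less on the log2 scale. A fit without the mural cell-like class, chosen after these values were seen, gave 37 of 90 pairs higher and 29 lower, beside 23.9% and 17.7% of all genes. In that fit the log2 difference of *Lrrtm4* in layer 6 neuron-like cells was 3.86 (SE 0.116, adjusted p = 7.12e-16) where the fit of all classes gave 5.14 (SE 0.142). *Lrrtm1* in layer 5 neuron-like cells went from 2.71 to 1.69 (SE 0.116, adjusted p = 5.24e-10). *Lrrtm4* was no longer called higher in layer 5 (0.33, adjusted p = 0.13) and upper-layer neuron-like cells (0.36, adjusted p = 0.0727), and it was called lower in Cajal-Retzius cell-like cells (-0.95, SE 0.229, adjusted p = 0.00256).

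**Figure D4:**
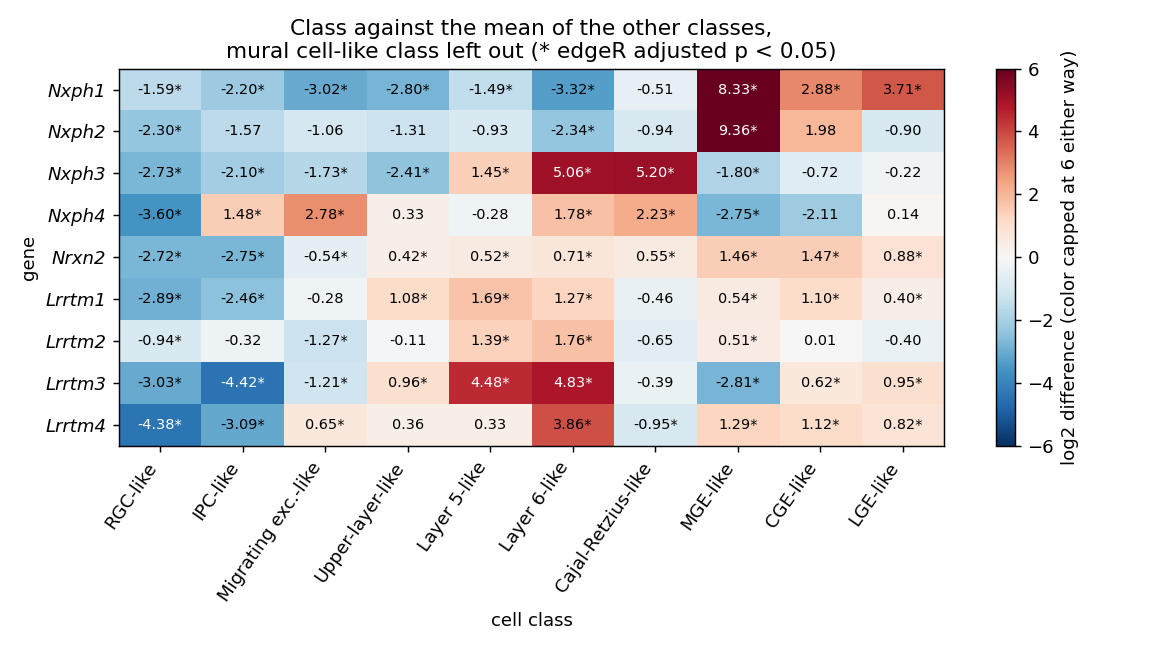
Log2 difference of each gene in each of 10 classes from the mean of the others, mural cell-like cells left out, with an asterisk where the edgeR adjusted p was under 0.05. RGC-like cells were lower for all 9 genes (31.2% of all genes tested there), and layer 6 neuron-like cells were higher for 7 (27.4%) and lower for 2 (18.5%).

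By class, layer 6 neuron-like cells had the most members called higher. In the fit of all 11 classes 7 of 9 were higher there (29.5% of all genes) and 2, *Nxph1* and *Nxph2*, lower (17.5%). MGE interneuron-like cells had 6 higher (25.1%), namely *Nxph1*, *Nxph2*, *Nrxn2*, *Lrrtm1*, *Lrrtm2* and *Lrrtm4*, and 3 lower (17%), namely *Nxph3*, *Nxph4* and *Lrrtm3*. The MGE- and layer 6-like classes thus had opposite calls for *Nxph1*, *Nxph2*, *Nxph3*, *Nxph4* and *Lrrtm3*. RGC-like cells had 0 members called higher (38.1% of all genes) and 6 lower (25.4%), and in the edgeR fit without the mural cell-like class all 9 were lower (31.2% of all genes) and 0 higher (38.3%). IPC-like cells had 1 higher (31.9%), *Nxph4*, and 4 lower (19.7%), and mural cell-like cells 1 higher (21.8%), also *Nxph4*, and 6 lower (25.3%). Layer 5 neuron-like cells had 6 higher (23.1%) and 1 lower (13.3%), upper-layer neuron-like cells 4 (26.2%) and 2 (13.2%), and migrating neuron-like cells 2 (27.9%) and 5 (15.7%). In CGE-like cells 5 were higher (14.6%) and 1 lower (10.2%), in LGE-like cells 5 higher (21.6%) and 0 lower (10.5%), and in Cajal-Retzius cell-like cells 3 higher (19.6%) and 0 lower (15.4%). *Nxph1* was called lower in each of the excitatory classes, with log2 differences of -2.88 in layer 6 (SE 0.534, adjusted p = 0.000119), -2.36 in upper-layer (SE 0.482, adjusted p = 0.000453) and -1.06 in layer 5 neuron-like cells (SE 0.378, adjusted p = 0.0322).

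Some named classes held more than 1 cluster, and *Lrrtm4* differed within them. These values are given as a description, since the clusters were drawn from the same cells. Of the 2 upper-layer neuron-like clusters, 1 had 397 and 346 CPM and the other 48.5 and 49.6 CPM. Of the 2 migrating neuron-like clusters, 1 had 384 and 402 CPM and the other 110 and 100.3 CPM. Within both classes the clusters did not overlap between embryos. *Nxph4* showed no such gap among migrating neurons, with 35.1 and 34.2 CPM in the first cluster and 40.7 and 39.2 CPM in the second. In the IPC-like class *Nxph4* was at 21.9 and 21.3 CPM in the larger cluster and at 8.40 and 6.44 CPM in the smaller one, in which the 6 cycling genes summed to 3515 and 3634 CPM against 57.9 and 45.5 CPM.

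**Figure D5:**
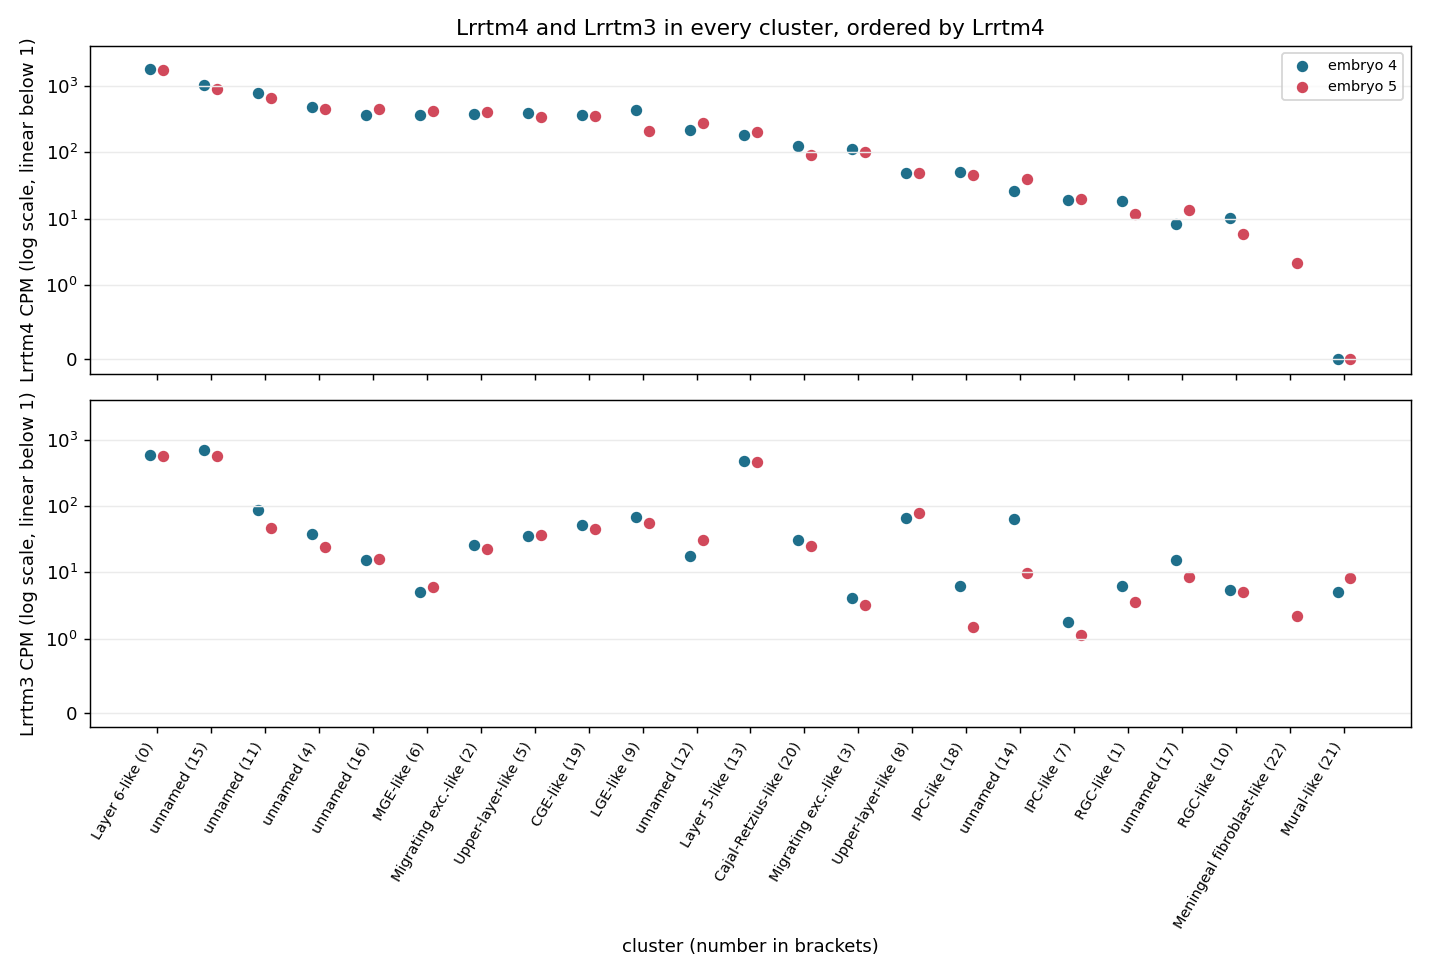
CPM of *Lrrtm4* and *Lrrtm3* (log scale, linear below 1) in each of the 23 clusters, ordered by *Lrrtm4*, with 1 point per embryo. The layer 6 neuron-like cluster is highest for *Lrrtm4*, unnamed clusters 15, 11 and 4 follow, and *Lrrtm3* is above 400 CPM in 3 clusters.

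Of the 24 genes listed beside the members, 23 could be tested, and *C1ql2* had too few UMIs. They are called partner genes here, although the list also holds the α-catenin genes *Ctnna1*, *Ctnna2* and *Ctnna3*, in which Lrrtm genes lie. Upper-layer neuron-like cells had 19 higher (26.2% of all genes) and 3 lower (13.2%), layer 6 neuron-like cells had 14 (29.5%) and 4 (17.5%), and MGE-like cells 13 (25.1%) and 6 (17%), whereas RGC-like cells had 4 higher (38.1%) and 13 lower (25.4%). The median log2 difference of the list was 0.71, 0.98, 0.64 and -1.29 in these classes, where that of all genes was between 0.06 and 0.09. Not every neuronal class had more partner genes higher than lower, since migrating neuron-like cells had 7 higher (27.9%) and 10 lower (15.7%). Cajal-Retzius cell-like cells had 8 higher (19.6%) and 5 lower (15.4%). *Nrxn3* differed from *Nrxn2* in its distribution. It was highest in CGE-like cells (23322 and 23935 CPM), with 30.4 and 18.6 CPM in layer 6 neuron-like cells. Both genes were called higher in MGE-like cells, whereas in layer 6 neuron-like cells *Nrxn2* was higher and *Nrxn3* lower (log2 difference -3.75, SE 0.321, adjusted p = 2.34e-09).

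Among the postsynaptic partners, the neuroligin *Nlgn1* was highest in layer 5 (4407 and 3881 CPM) and layer 6 neuron-like cells (3826 and 3378 CPM) and called lower in MGE-like cells (329 and 236 CPM, log2 difference -1.16, SE 0.163, adjusted p = 5.45e-06). *Gpc4*, a glypican that binds Lrrtm4, was highest in RGC-like cells (219 and 233 CPM). It had 109 and 141 CPM in layer 6 neuron-like cells and 2.98 and 2.05 CPM in MGE-like cells, the next class after layer 6 for *Lrrtm4*. *Ptprs*, a receptor phosphatase that binds heparan sulfate, had 198 and 204 CPM in layer 6 and 207 and 185 CPM in MGE-like cells and was called lower in both (log2 differences -0.21, SE 0.077, adjusted p = 0.0302, and -0.43, SE 0.0816, adjusted p = 0.000192).

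The α-catenin hosts of the Lrrtm genes behaved in 3 different ways. *Ctnna3*, the host of *Lrrtm3*, was highest in layer 6 (384 and 388 CPM) and layer 5 neuron-like cells (277 and 295 CPM) and at 5.32 and 3.42 CPM in MGE-like cells, the same order as *Lrrtm3* in these classes. Over the 11 classes the Pearson correlation of log2(CPM + 10) between the pair was 0.957, the highest of 6473 genes ranked against *Lrrtm3*. *Ctnna2* and *Lrrtm1* had a correlation of 0.891, rank 157. *Ctnna1*, which was highest in mural cell-like (239 and 205 CPM), RGC-like (215 in each embryo) and IPC-like cells, had a correlation of -0.70 with *Lrrtm2*. These are descriptions over 11 classes that share libraries, and a gene and its host lie on opposite strands.

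The genes outside these lists whose pattern over the 11 classes was most like each member were found among 6456 genes with at least 50 CPM in a class. For *Nxph1* they were *Elfn1*, *Fgd3* and *Rpp25* (Pearson r of log2(CPM + 10) 0.986, 0.970 and 0.968). For *Nxph2* they were *Mkx*, *Cntnap3* and *Cacng3* (0.992, 0.991 and 0.975). All 6 were highest in MGE-like cells. *Nxph3* was nearest to *Slc35b1*, *Pde1a* and *Adcy1* (0.939, 0.921 and 0.910), each highest in Cajal-Retzius cell-like cells. *Nxph4* had the weakest likeness, with *Itm2b*, *Yipf4* and *Zfp950* (0.884, 0.883 and 0.866). *Nrxn2* was nearest to *Mast1*, *Evi5l* and *Malat1* (0.983, 0.983 and 0.978). *Lrrtm1* was nearest to *Shtn1*, *Gm43376* and *Nav3* (0.983, 0.978 and 0.975) and *Lrrtm2* to *Neto2*, *Spock1* and *Homer1* (0.933, 0.909 and 0.905). *Lrrtm3* was nearest to *Tmtc1*, *Hs3st2* and *Sdk1* (0.941, 0.928 and 0.926) and *Lrrtm4* to *Fbxo25*, *Rnf157* and *Atp8a2* (0.963, 0.950 and 0.946). Among the members themselves the nearest pairs were *Lrrtm1* with *Lrrtm4* (0.881), *Nrxn2* with *Lrrtm1* (0.843) and *Nxph1* with *Nxph2* (0.837).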

How the data were processed

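The authors dissociated the cortex in papain, prepared single-cell 3′ v3.1 libraries (10x Genomics) and deposited raw UMI counts per gene and barcode, not normalized, with 1 matrix per embryo. The submitters' processing notes name Cell Ranger 7.0.0 and the build mm10, and the matrix headers name Cell Ranger 7.1.0. Whether reads in introns were counted was not given in the sources used here.

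Barcodes with under 1000 detected genes (1772 and 765) or over 10% mitochondrial counts (174 and 56) were left out, and 947 and 1052 likely doublets were removed (highest Scrublet scores, 0.8% for each 1000 cells). Counts were scaled to 10000 per cell, and 2000 variable genes, 30 components, 20 neighbours and Leiden resolution 1 were used (scanpy 1.11.5, leidenalg 0.10.2), with the 9 members and 24 partner genes kept out. A cluster was named where the mean log2 ratio of its markers was at least 0.5 with a margin of 0.25, at least 3 markers were in 10% of its cells, and no other class had more markers among its 10 leading genes than its own. This rule was partly set after the clusters were seen, and 2 named clusters had no own marker among those genes. In 2 others, the layer 6 neuron-like and LGE-like clusters, as many of those genes were markers of another class as of their own. Classes needed 20 cells in each embryo. Meningeal fibroblast-like cells (45, embryo 5) did not.

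Class sums of UMIs in each embryo were tested with edgeR 4.0.16 (R 4.3.3, quasi-likelihood test, TMM, 1 fit of 11 classes, Benjamini-Hochberg adjustment over all tested genes). Calls used an adjusted p under 0.05. TMM changes library sizes, so log2 differences can depart from CPM ratios. The SE is the log2 difference over the square root of F. Classes of the same embryo are paired, since they derive from 1 animal, but the reported fit had no term for the embryo. The deviations of the classes correlated at 0.0084 to 0.231 over 55 pairs of classes (median 0.0644). The test was tried on simulated data with planted changes in 2 classes, where the share of false calls was under the threshold for MGE-like and above it for layer 6 neuron-like cells, so calls near the threshold are less certain than the adjusted p states. Alternatives covered the cell filters, doublets, clustering, an embryo block, DESeq2 1.42.0 and its size factors, no filter on low counts, another reference and each embryo left out. Named genes were the members, the partner list and, for each member, the 3 genes most like it. Single values of 1 partner gene are not reported here. The members and lists were chosen with earlier results of these data known.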

Additional observations from a re-analysis of the deposited data

Results flagged for a closer look

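Cells of the 7 unnamed clusters entered no comparison between named classes. They counted only in the pooled reference of every other kept cell. Some levels of members there stood above those of all named classes, or of all but 1, in each embryo. In embryo 4, *Lrrtm1* and *Lrrtm3* in cluster 15 stood above all named classes. Cluster 15, led by *Il1rapl2*, *Grin2a* and *Nr4a2* (407 cells), had a mean of 628 CPM of *Lrrtm3* (698 and 557) and 960 CPM of *Lrrtm4* (1032 and 888), so that both genes of layer 6 neuron-like cells were high in it. *Lrrtm1* was at 65.0 and 57.6 CPM there and *Lrrtm2* at 25.7 and 26.9 CPM. *Nxph3* was also present in this cluster, at 45.3 and 45.5 CPM. Cluster 11, led by *Thsd7a* and *Tfap2d* (864 cells), had a mean of 719.9 CPM of *Lrrtm4* (785 and 655), with 86.6 and 46.3 CPM of *Lrrtm3*. Cluster 4, led by *Slit3* and *Slc4a4* (1382 cells), had a mean of 471 CPM of *Lrrtm4* (486 and 455). Cluster 17, which mixed endothelial and microglial genes such as *Cldn5* and *C1qb* (334 cells) at medians of 3718 and 2924 UMIs, had a mean of 8.97 CPM of *Nxph2* (9.41 and 8.53), where 3 UMIs are 5.12 CPM. These differences were not tested.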

How the results depend on the processing

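The counts of member and class pairs called by edgeR, 40 higher and 30 lower, moved by over 1.5 times where the reference was the pooled UMIs of every other kept cell (24 higher and 60 lower). The remaining alternatives stayed within 1.5 times over the classes they shared, among them 5% mitochondrial counts (42 and 20), DESeq2 (41 and 36), 500 detected genes (43 and 25) and doublets kept (39 and 22, where 10 classes were shared and gave 34 and 29). With the embryo as a replicate block 40 were higher and 31 lower. Without 1 embryo of the tested class the counts ranged from 39 to 40 higher and from 26 to 30 lower, where the lone sample was assumed to vary like the other classes. Without the mural cell-like class, an alternative chosen after seeing the data, they were 37 and 29. All 123 log2 differences of a member in its highest class under these alternatives kept their direction and their side of the threshold. That class was picked for its CPM in these same counts, so the direction was largely set in advance. The count therefore says little about robustness, and calls of members in other classes are not part of it. A class name did not always cover the same cells. Layer 6 neuron-like cells numbered 271 and 339 at resolution 2, against 967 and 1026. CGE-like cells numbered 353 and 399 with 500 detected genes, against 146 and 136. Where a class was not named, as CGE-like cells at resolution 0.5 or layer 5 neuron-like cells with doublets kept, its difference is missing from the 123. Some of the 123 differences moved by over 1.5 times in fold. With the pooled reference the log2 difference fell from 8.66 to 7.90 for *Nxph1*, from 5.27 to 3.01 for *Nxph3*, from 2.71 to 1.22 for *Lrrtm1*, from 5.03 to 3.49 for *Lrrtm3* and from 5.14 to 3.04 for *Lrrtm4*. With doublets kept it was 7.63 for *Nxph1*, 8.38 for *Nxph2* (9.27 in the tests reported), 4.57 for *Nxph3*, 3.28 for *Lrrtm2* (2.12 in the tests reported) and 4.19 for *Lrrtm4*. *Nxph2* was at 9.90 with 500 detected genes, *Lrrtm2* at 2.77 with 5% mitochondrial counts and *Lrrtm3* at 4.45 at resolution 2. Without the mural cell-like class *Lrrtm1* was at 1.69 and *Lrrtm4* at 3.86. The class with the highest CPM changed for *Nrxn2* (MGE-like with 500 detected genes), *Nxph3* (layer 6-like with 5% mitochondrial counts or doublets kept), *Nxph4* (Cajal-Retzius-like at resolution 2 or with doublets kept) and *Lrrtm1* (layer 6-like at resolution 2), and the cause was not tested. With doublets kept, the level in MGE-like cells was 3391 CPM for *Nxph1* (5151 without them) and 192 CPM for *Nxph2* (302 without them), and *Nxph1* was seen in 91.5% of these cells. With 2 embryos and some classes under 70 cells per embryo, low genes such as *Nxph4* and *Lrrtm2* rest on few UMIs in the small classes.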

Other observations

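Meningeal fibroblast-like cells were named in embryo 5 alone (45 cells, 459050 UMIs). They entered no comparison between the 11 classes and counted only in the pooled reference of every other kept cell. *Nrxn2* was at 89.3 CPM in them, with a UMI in 55.6% of the cells, and *Nxph4* at 13.1 CPM from 6 UMIs. *Nxph1*, *Nxph2*, *Nxph3* and *Lrrtm2* had 0 UMIs, which allows up to 6.54 CPM. Cluster 14, whose leading genes included *Ttr*, *Dlx1* and *Dlx2*, had 26.5 and 39.3 CPM of *Lrrtm4* and 16.5 and 33.6 CPM of *Nxph1*. The 6 GABAergic genes summed to 1534 and 1983 CPM there and the cycling genes to 2445 and 3161 CPM. *Lrrtm3* differed between the embryos in this cluster, at 64.1 and 9.82 CPM.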
